A study of Mus musculus with 12 samples.

Results

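The T cell receptor complex and its proximal kinases were followed through 9 genes: the CD3 chains Cd3d, Cd3e and Cd3g, the zeta chain Cd247, the coreceptor Cd4, the costimulatory receptor Cd28, the kinases Lck and Zap70, and the membrane adaptor Lat. The genes were taken by name and the rule used no measured value, but the list was chosen with earlier results of these data known. A probe set, the group of short probes that reads 1 transcript on an Affymetrix array, was a member where 1 of these names was its only gene symbol in the platform annotation. This gave 14 of the 22690 probe sets on the array, for 8 of the 9 genes. Cd247 had 4, Cd4, Cd28 and Zap70 had 2 each, and Cd3d, Cd3e, Cd3g and Lat had 1 each. Lck was not analysed here.

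The cells carried the transgenic 5CC7 T cell receptor. Per the labels, 1000000 of them were given to B10.A mice through the tail vein, a peptide in PBS was injected by the same route, and 48 h later the cells were sorted by flow cytometry from pooled lymph nodes. The submitters describe MCC as a strong agonist for this receptor and 102S as a weak agonist. The 4 groups were MCC at 2 µg, MCC at 0.2 µg, 102S at 2 µg and 102S at 0.2 µg, with 3 arrays each and 12 arrays in all. Every group had thus met a peptide, and unstimulated cells were not analysed here. Age, sex and any other allele of the mice are not given in the sources used here, and the labels do not say whether replicates were separate animals. The p-values below thus measure only the spread between these samples. Between replicates 2 and 3 it may be technical, while replicate 1 differed from both in sex-linked RNA (values below).

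The T cell receptor binds peptide on MHC but has no signalling tail of its own. It is assembled with CD3 gamma, delta, epsilon and zeta chains, whose cytoplasmic tyrosine motifs are phosphorylated by Lck, a kinase carried by the coreceptors CD4 and CD8. ZAP-70 docks on the phosphorylated motifs and in turn phosphorylates LAT, from which calcium, Ras and protein kinase C signalling branch out, while CD28 adds a second signal. Engaged receptors are internalised and degraded, and much of this control acts on protein, which an array does not read.

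RefSeq promoters, here the 250 bases before and 50 bases after a gene's start on assembly GRCm38.p6, were given for 7 of the 9 genes, 10 promoters in all. The promoters of Cd247 and of the CD3 chains are shown, because Cd247 was the member that passed a test and the 3 CD3 genes lie together on chromosome 9 and had the smallest ranges over the arrays. Each is written 5′ to 3′ on the strand of its gene, and capitals mark AGGAAGT, a core that Ets family factors bind, read on either strand (ACTTCCT on the other).
Cd247, chr1:165788431-165788730, plus strand: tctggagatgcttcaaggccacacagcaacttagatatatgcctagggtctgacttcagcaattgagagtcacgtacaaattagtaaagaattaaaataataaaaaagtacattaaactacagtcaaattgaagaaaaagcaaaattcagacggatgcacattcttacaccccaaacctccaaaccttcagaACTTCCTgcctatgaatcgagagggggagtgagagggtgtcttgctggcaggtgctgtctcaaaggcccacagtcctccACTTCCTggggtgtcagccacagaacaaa
Cd3d, chr9:44981536-44981835, plus strand: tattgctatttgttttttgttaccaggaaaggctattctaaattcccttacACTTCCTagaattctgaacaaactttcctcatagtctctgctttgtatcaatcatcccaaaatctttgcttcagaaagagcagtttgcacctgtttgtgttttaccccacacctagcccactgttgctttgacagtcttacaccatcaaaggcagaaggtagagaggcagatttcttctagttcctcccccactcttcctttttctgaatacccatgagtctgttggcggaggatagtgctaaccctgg
Cd3e, chr9:45009562-45009861, minus strand: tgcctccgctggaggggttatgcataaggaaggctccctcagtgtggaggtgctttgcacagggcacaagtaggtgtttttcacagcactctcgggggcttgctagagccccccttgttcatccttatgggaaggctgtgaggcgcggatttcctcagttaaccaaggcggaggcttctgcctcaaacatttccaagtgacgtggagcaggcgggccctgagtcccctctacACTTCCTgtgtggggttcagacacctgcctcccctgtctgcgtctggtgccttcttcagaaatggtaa
Cd3g, chr9:44980382-44980681, minus strand: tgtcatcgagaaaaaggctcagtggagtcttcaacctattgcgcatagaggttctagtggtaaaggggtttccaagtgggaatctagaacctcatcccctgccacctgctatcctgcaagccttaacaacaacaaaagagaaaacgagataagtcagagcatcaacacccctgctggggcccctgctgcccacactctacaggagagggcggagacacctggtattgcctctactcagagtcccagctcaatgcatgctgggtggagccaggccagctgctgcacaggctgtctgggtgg
The starts of Cd3g and Cd3d lie 1355 bases apart on opposite strands. The core occurs at 2 places in the Cd247 promoter, at 1 in those of Cd3d and Cd3e, and not in these letters in that of Cd3g. Over the 10 promoters 5 held it, in 4 genes, against 9.4% of 32817 RefSeq mouse promoters of the same length. TGTGGT (or ACCACA), a Runx core, was in 3 of the 10 and in 16.8% of all, and TGACGTCA, the cyclic AMP response element, in 1 (Zap70) and in 1.8% of all. The motifs were picked after the promoters had been seen, and a match is a description of letters only.

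Values are log2 expression, where a difference of 1 is a 2-fold difference. The array medians lay within 0.0925 log2 of each other, and replicates of a group correlated at r = 0.977 to 0.995 across probe sets. The replicate 1 array of each group stood apart: Xist, an RNA made in female cells only, read 10.35 to 11.03 log2 there (4 arrays) and 2.27 to 2.78 on the 8 others, and the Y-linked Eif2s3y lay between 3.31 and 4.26 against 8.75 to 9.37. Replicate 1 was thus not a repeat of the RNA of replicates 2 and 3, and the spread within groups includes this difference. A second check was the β-actin difference, the 3′ minus the 5′ control probe set of this transcript, which is larger where RNA is broken or copied only in part. It averaged 0.63 ± 0.12 log2 with MCC at 2 µg, 1.62 ± 0.81 with MCC at 0.2 µg, 1.24 ± 0.41 with 102S at 2 µg and 1.33 ± 0.88 with 102S at 0.2 µg (SD, n = 3). This value was highest on 3 arrays: MCC at 0.2 µg replicate 2 (1.78), MCC at 0.2 µg replicate 3 (2.33) and 102S at 0.2 µg replicate 3 (2.35). As T cell markers, the CD3 chains and the main Cd4 probe set were above the low-value limit (log2 4.48, the 40th percentile of probe set means) on every array. Of 10 names for receptor chains 1 had a probe set of its own, Trbv13-2, which was below that limit.

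Of the 8 genes measured 1, Cd247, passed the test in 1 of the comparisons, and it was lower with MCC than with 102S at 0.2 µg. No other member gene passed in any comparison of this fit, which had no term for the replicate 1 arrays. With a term for the arrays with high Xist, chosen after seeing the data, Zap70 and Cd28 passed in some comparisons (values below). Both also passed with the replicate number as a block. Of the 14 probe sets 13 were above the low-value limit and were tested with limma over 13556 probe sets, 7945 genes, with Benjamini-Hochberg adjusted p under 0.05 as the threshold. A gene with more than 1 probe set was counted by its brightest, the main probe set.

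For MCC against 102S at 2 µg, 0 of 8 member genes passed, against 10.3% of all probe sets tested. At an unadjusted p under 0.05 it was 2 of 8 genes, Zap70 and Cd4, against 24.8% of all genes. For MCC against 102S at 0.2 µg, 1 of 8 passed (lower), against 14.3% of all probe sets, 6.45% in that direction. For 2 µg against 0.2 µg of MCC, 0 of 8 passed, against 1.76%, with 3 of 8 at an unadjusted p under 0.05 against 18.1% of genes. For 2 µg against 0.2 µg of 102S, 0 of 8 passed, against 3.16%, with 2 of 8 unadjusted against 14.5%. The interaction, the peptide difference at 2 µg minus that at 0.2 µg, was called for 0 of 8, against 0.767%, with 0 of 8 unadjusted against 9.64%. Counted as genes, 352 of 7945 were called higher and 543 lower for MCC against 102S at 2 µg, and 722 and 558 at 0.2 µg. It was 57 and 96 for the dose of MCC, 262 and 42 for that of 102S and 5 and 67 for the interaction. With so few members, 0 or 1 called lies near each of these backgrounds.

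The median difference over the 8 genes was 0.02 log2 for MCC against 102S at 2 µg, where it was -0.05 over all genes tested. At 0.2 µg it was 0.07, against -0.01. For the dose of MCC it was 0.35, against -0.03, with all 8 genes on the higher side at 2 µg, which became 6 of 8 under quantile normalization. The β-actin difference moved with this comparison, at 0.63 ± 0.12 with MCC at 2 µg and 1.62 ± 0.81 with MCC at 0.2 µg (SD, n = 3), and with it as a covariate the median was 0.05, against -0.04 over all genes, with 5 of 8 higher. With the same covariate the median for MCC against 102S at 2 µg was -0.12, against -0.07, with 2 of 8 higher. For the dose of 102S it was 0.11, against 0.01, and for the interaction 0.12, against -0.05. The comparisons share groups, so these values are not independent of each other.

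**Figure D1:**
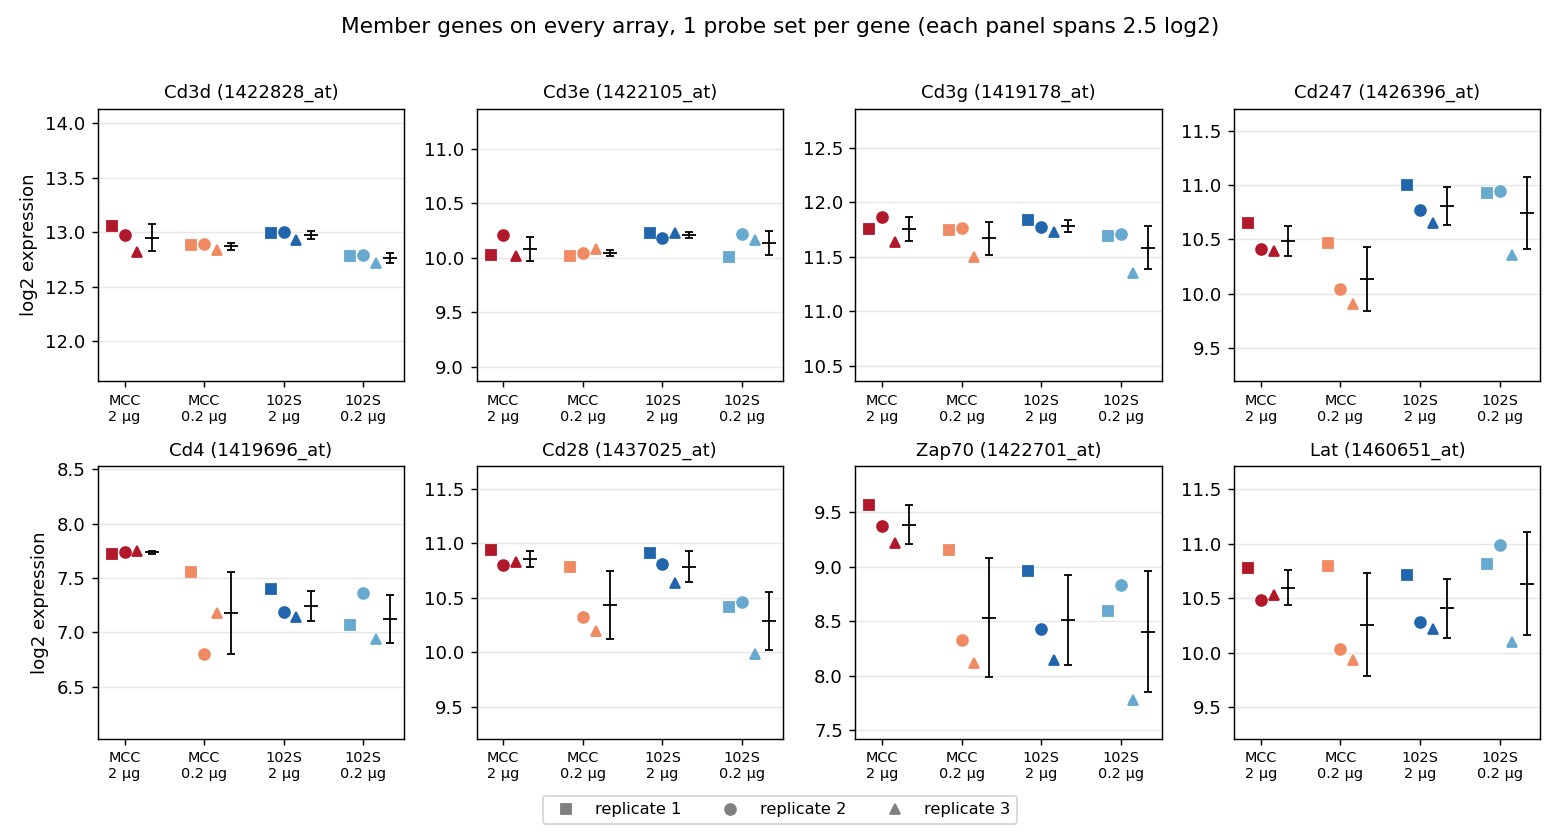
Log2 expression of 8 member genes (1 probe set each, y axis, every panel spanning the same height) on each of the 12 arrays, by group along the x axis, MCC before 102S and 2 µg before 0.2 µg within each peptide. Marker shapes give the replicate, and bars the group mean and SD of 3 arrays. The CD3 chains lie almost level, Cd247 sits lower in the MCC groups, and Zap70 and Cd4 are highest with MCC at 2 µg.

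The CD3 chains carry the signalling motifs of the complex. Cd3e (probe set 1422105_at) read 10.02, 10.21 and 10.01 log2 with MCC at 2 µg and 10.02, 10.04 and 10.08 with MCC at 0.2 µg. It read 10.23, 10.18 and 10.23 with 102S at 2 µg and 10.01, 10.22 and 10.17 with 102S at 0.2 µg. The whole range over 12 arrays was 0.22 log2, and each group overlapped its neighbour in level.

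Cd3d (1422828_at) read 13.06, 12.98 and 12.81 log2 with MCC at 2 µg and 12.88, 12.89 and 12.83 with MCC at 0.2 µg. It read 12.99, 13 and 12.93 with 102S at 2 µg and 12.78, 12.79 and 12.71 with 102S at 0.2 µg. The 102S groups did not overlap each other, and 102S at 0.2 µg was also below every array of MCC at 0.2 µg. The 102S dose difference was 0.21 ± 0.06 log2 (± SE here and in all differences below), or 1.16-fold, with a limma adjusted p of 0.123. Cd3g (1419178_at) read 11.76, 11.87 and 11.64 log2 with MCC at 2 µg and 11.75, 11.76 and 11.49 with MCC at 0.2 µg. It read 11.84, 11.77 and 11.73 with 102S at 2 µg and 11.69, 11.71 and 11.35 with 102S at 0.2 µg. The arrays of 102S at 0.2 µg again lay just below those of 102S at 2 µg, by 0.20 ± 0.11 on average (adjusted p = 0.504). With the β-actin difference as a covariate the Cd3d dose difference of 102S was 0.21 and passed (adjusted p = 0.0164).

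The intervals show how far these chains could differ. For MCC against 102S at 2 µg the 95% interval was -0.16 to 0.12 log2 for Cd3d, -0.32 to 0.06 for Cd3e and -0.26 to 0.21 for Cd3g. At 0.2 µg it was -0.03 to 0.24 for Cd3d, -0.28 to 0.11 for Cd3e and -0.15 to 0.32 for Cd3g. A difference of 1.5-fold lay outside every one of these 6 intervals.

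Cd247 encodes the zeta chain, the part of the complex with the most phosphorylation motifs. Its main probe set 1426396_at read 10.46, 10.04 and 9.91 log2 with MCC at 0.2 µg, against 10.92, 10.95 and 10.36 with 102S at 0.2 µg. The third 102S array lay below the first MCC array, so the groups overlapped. The difference was -0.61 ± 0.18 log2, 1.52-fold lower with MCC, with a 95% interval of -0.99 to -0.22 and a limma adjusted p of 0.0395. At 2 µg it read 10.65, 10.41 and 10.40 with MCC, against 10.996, 10.77 and 10.65 with 102S. Those groups touched without overlapping, and the difference was -0.32 ± 0.18 (adjusted p = 0.309). The interaction was 0.28 ± 0.25 (adjusted p = 0.711), so the difference between the doses did not pass.

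The other tested probe sets of Cd247 gave the same sign at 0.2 µg without passing. With 1420716_at the values were 6.09, 6.13 and 5.71 log2 with MCC at 0.2 µg, against 7.11, 6.87 and 6.46 with 102S at 0.2 µg. Every MCC array was below every 102S array, by -0.84 ± 0.26 on average (adjusted p = 0.0519). At 2 µg the same probe set read 6.11, 6.26 and 5.47 with MCC, against 6.96, 6.66 and 6.14 with 102S, a difference of -0.64 ± 0.26 (adjusted p = 0.158), and these groups overlapped. At 0.2 µg this probe set passed in 9 of 21 repeats with another setting, among them quantile normalization (adjusted p = 0.0229), median centring (0.0375), the β-actin covariate (0.0134) and a term for the arrays with high Xist (0.0168). At 2 µg it passed with the β-actin covariate (0.0082). The third, 1452539_a_at, varied within groups more than between them: 8.47, 6.51 and 5.9999 with MCC at 0.2 µg, against 8.81, 8.51 and 6.18 with 102S at 0.2 µg, and 9.12, 8.06 and 8.01 with MCC at 2 µg, against 8.85, 7.60 and 7.21 with 102S at 2 µg. For 1452539_a_at the MCC minus 102S difference was -0.84 ± 0.74 at 0.2 µg (adjusted p = 0.506). At 2 µg it had the other sign, 0.51 ± 0.74 (adjusted p = 0.736). The fourth, 1426079_at, had group means of 3.18 to 3.72, below the low-value limit, and was not tested.

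The Cd247 call was close to the threshold. In a fit of the 6 arrays compared alone its adjusted p was 0.135. Leaving out 1 array at a time ended the call in 8 of 12 cases. The adjusted p was 0.0549 without MCC at 2 µg replicate 2, 0.0503 without MCC at 2 µg replicate 3, 0.143 without MCC at 0.2 µg replicate 2 and 0.15 without MCC at 0.2 µg replicate 3. It was 0.0585 without 102S at 2 µg replicate 2, 0.0502 without 102S at 2 µg replicate 3, 0.147 without 102S at 0.2 µg replicate 1 and 0.155 without 102S at 0.2 µg replicate 2. The call stood without replicate 1 of every group (adjusted p = 0.0217) and with a term for the arrays with high Xist (0.00358). With the β-actin difference as a covariate the MCC minus 102S difference passed at both doses, at -0.50 (adjusted p = 2.8e-05) for 0.2 µg and -0.55 (adjusted p = 3.84e-05) for 2 µg.

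The summed linear level of CD8 T and NK cell markers and of B cell markers, some of which activated T cells can also express, was lower with MCC as well. The mean log2 level of the B cell markers was not. In bulk samples, fewer cells of a type and less RNA per cell cannot be told apart. Of 11 CD8 T and NK cell markers 10 had a probe set and 7 were above the low-value limit. Their summed linear level was 401 to 484 with MCC at 2 µg, 503 to 665 with MCC at 0.2 µg, 650 to 706 with 102S at 2 µg and 947 to 1130 with 102S at 0.2 µg. Of the 7, Klrd1 and Prf1 were lower with MCC at 0.2 µg. Klrd1, an NK receptor chain, differed by -2.36 ± 0.34 log2 (adjusted p = 0.000593). Cd8a averaged 5.59 ± 0.28 with MCC at 0.2 µg and 5.97 ± 0.40 with 102S at 0.2 µg (SD, n = 3), and did not pass, and the NK receptor Ncr1 was below the low-value limit. Their part in the Cd247 result was not tested. Of 9 B cell markers 8 had a probe set and 3 were above the limit. The summed linear level of the 8 was 1715 to 1989, 1522 to 1660, 2108 to 2247 and 2695 to 3083 in the same order of groups, with Cd79a and Ms4a1 below the limit. Their mean log2 level per array was 5.04 to 5.26, 5.04 to 5.16, 4.93 to 5.02 and 4.92 to 5.52. It was thus higher with MCC at 2 µg and overlapped at 0.2 µg. At 0.2 µg 1 of these 3, Ighm by its main probe set, was lower with MCC (-0.98 ± 0.09 log2, adjusted p = 1.82e-05), and 1, Cd79b, was higher (1.26 ± 0.33, adjusted p = 0.0227). Myeloid markers, of which 3 of 10 were above the limit, summed to 164 to 214, 168 to 207, 159 to 198 and 171 to 234.

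**Figure D2:**
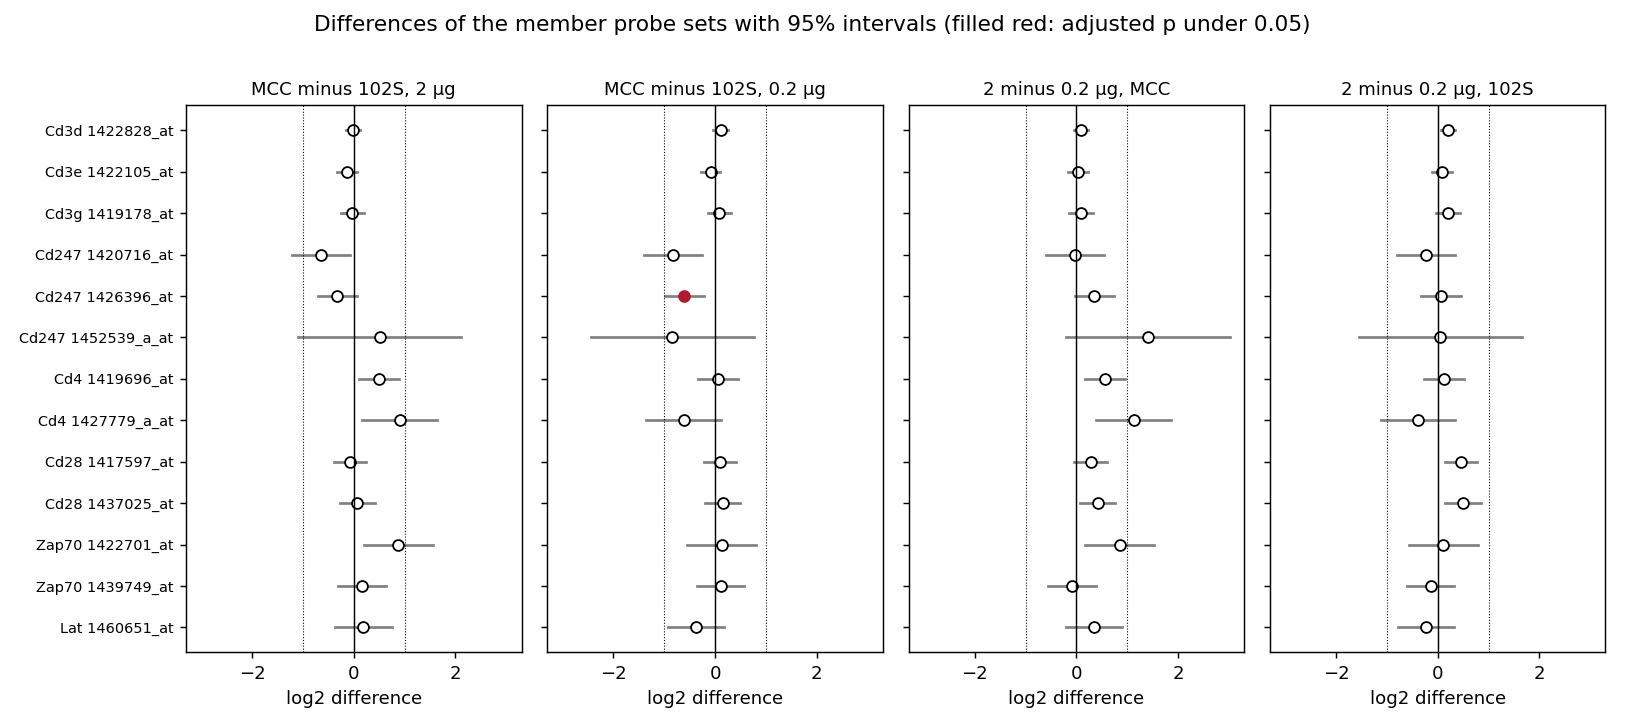
Differences in log2 (x axis) of the 13 tested member probe sets (rows), with 95% intervals as bars, in 4 comparisons, each given as the first-named group minus the other. The filled red point, Cd247 1426396_at for MCC minus 102S at 0.2 µg, is the only call, and dotted lines mark a 2-fold difference.

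For the kinase Zap70, which docks on the phosphorylated chains, the main probe set 1422701_at read 9.57, 9.37 and 9.22 log2 with MCC at 2 µg and 9.15, 8.33 and 8.11 with MCC at 0.2 µg. It read 8.96, 8.43 and 8.14 with 102S at 2 µg and 8.59, 8.83 and 7.78 with 102S at 0.2 µg. All 3 arrays of MCC at 2 µg lay above all 9 others, and the other groups overlapped one another. The difference between MCC and 102S at 2 µg was 0.87 ± 0.31 log2, or 1.83-fold, with an interval of 0.20 to 1.55 and a limma adjusted p of 0.102. That between 2 µg and 0.2 µg of MCC was 0.85 ± 0.31 (adjusted p = 0.19). Neither passed. MCC at 2 µg was also the group with the smallest mean β-actin difference. With that difference as a covariate the MCC minus 102S difference at 2 µg was 0.46 and passed (adjusted p = 0.00936), that at 0.2 µg was 0.32 and passed (adjusted p = 0.0388), and the dose difference of MCC was 0.18 (adjusted p = 0.489). In a fit of the 6 arrays compared alone the peptide difference at 2 µg passed as well (adjusted p = 0.0102). With a term for the arrays with high Xist, which are replicate 1 of every group, the peptide difference at 2 µg (adjusted p = 0.0183) and the dose difference of MCC (0.0416) passed. Without these arrays the dose difference of MCC was 1.07 and passed (adjusted p = 0.0474).

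A second Zap70 probe set, 1439749_at, did not show the pattern. It read 6.77, 6.88 and 7.53 log2 with MCC at 2 µg, against 6.60, 7.15 and 6.95 with 102S at 2 µg. The groups overlapped, and the difference was 0.16 ± 0.22 (adjusted p = 0.72).

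Lat, the scaffold that ZAP-70 phosphorylates, was measured by 1460651_at. It read 10.78, 10.49 and 10.53 log2 with MCC at 2 µg and 10.80, 10.04 and 9.93 with MCC at 0.2 µg. It read 10.72, 10.28 and 10.22 with 102S at 2 µg and 10.82, 10.99 and 10.10 with 102S at 0.2 µg. Each group overlapped its neighbours, and the differences ran between -0.38 ± 0.25 for MCC against 102S at 0.2 µg (adjusted p = 0.369) and 0.34 ± 0.25 for the dose of MCC (adjusted p = 0.481). With the β-actin difference as a covariate the dose difference of 102S was -0.28 and passed (adjusted p = 0.0431).

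Cd4, the coreceptor that brings Lck to the receptor, was measured by 1419696_at. It read 7.72, 7.74 and 7.75 log2 with MCC at 2 µg and 7.55, 6.80 and 7.18 with MCC at 0.2 µg. It read 7.40, 7.18 and 7.15 with 102S at 2 µg and 7.07, 7.37 and 6.94 with 102S at 0.2 µg. MCC at 2 µg lay above every other array, and the remaining groups overlapped. The difference was 0.49 ± 0.18 between MCC and 102S at 2 µg (adjusted p = 0.116) and 0.56 ± 0.18 between the doses of MCC (adjusted p = 0.151). The first passed under quantile normalization (0.55, adjusted p = 0.0431) and in a fit of the 6 arrays compared alone (adjusted p = 0.0469). With the β-actin difference as a covariate neither passed, at 0.35 (adjusted p = 0.115) for the peptides at 2 µg and 0.33 (0.329) for the dose of MCC.

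The other Cd4 probe set, 1427779_a_at, read 5.95, 5.69 and 5.70 log2 with MCC at 2 µg and 5.51, 4.56 and 3.88 with MCC at 0.2 µg, against 5.24, 4.84 and 4.55 with 102S at 2 µg and 5.40, 5.51 and 4.90 with 102S at 0.2 µg. MCC at 2 µg was again above all other arrays. Replicate 3 of MCC at 0.2 µg (3.88) lay below the low-value limit of log2 4.48, and replicate 2 (4.56) lay just above it. The dose difference of MCC was 1.13 ± 0.34 (adjusted p = 0.122), and that of 102S was -0.39 ± 0.34 (adjusted p = 0.765). The MCC minus 102S difference was 0.90 ± 0.34 at 2 µg (adjusted p = 0.122) and -0.62 ± 0.34 at 0.2 µg (adjusted p = 0.264). The interaction, 1.52 ± 0.48, did not pass (adjusted p = 0.298). Without MCC at 0.2 µg replicate 1 it did (adjusted p = 0.0279), as did the peptide difference at 2 µg (0.0313) and, as -1.05, at 0.2 µg (0.0182). With a term for the arrays with high Xist, the peptide difference at 2 µg (adjusted p = 0.0306) and the dose difference of MCC (0.0254) passed. The peptide difference at 2 µg also passed with only the arrays compared (0.017) and once the 2 arrays with the top β-actin values were left out (0.0364). The dose difference of MCC passed without replicate 1 of every group (0.0286). With the β-actin difference as a covariate none of these passed. The peptide difference at 2 µg was then 0.49 (adjusted p = 0.0816), the dose difference of MCC 0.46 (0.268) and the interaction 0.91 (0.132).

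Cd28, the costimulatory receptor for B7 ligands, was lower at the low dose on its main probe set 1437025_at by amounts that did not pass. It read 10.93, 10.80 and 10.83 log2 with MCC at 2 µg and 10.78, 10.32 and 10.20 with MCC at 0.2 µg. It read 10.91, 10.81 and 10.63 with 102S at 2 µg and 10.42, 10.46 and 9.98 with 102S at 0.2 µg. Within each peptide the doses did not overlap. The dose difference was 0.42 ± 0.16 log2 for MCC (adjusted p = 0.203) and 0.50 ± 0.16 for 102S (adjusted p = 0.147). With the β-actin difference as a covariate they were 0.09 (adjusted p = 0.567) and 0.47 (adjusted p = 8.12e-05), and the interaction was -0.38 (adjusted p = 0.0452), while the MCC minus 102S difference at 0.2 µg was 0.24 (adjusted p = 0.00749). With a term for the arrays with high Xist the dose difference of 102S passed on this probe set (adjusted p = 0.0314) and on the second (0.0316). The second probe set, 1417597_at, ran between 9.92 and 10.73, with dose differences of 0.28 ± 0.15 for MCC (adjusted p = 0.333) and 0.45 ± 0.15 for 102S (adjusted p = 0.151).

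The order of group means differed from member to member. For Cd247 (1426396_at) it ran 102S at 2 µg, 102S at 0.2 µg, MCC at 2 µg, MCC at 0.2 µg, from high to low, and neighbours overlapped at each step. For Zap70 (1422701_at) and Cd4 (1419696_at) it ran MCC at 2 µg, then the 3 other groups close together. For Cd28 (1437025_at) both 2 µg groups stood above both 0.2 µg groups, and neighbours overlapped at each step.

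With 1 probe set per gene, the 95% interval stayed within 2-fold either way for 7 of 8 members for MCC against 102S at 2 µg, where 83.3% of all tested probe sets did. The exception was Zap70. At 0.2 µg it was 8 of 8, against 80.3%. It was 7 of 8 for the dose of MCC, against 85.2%, again all but Zap70, and 8 of 8 for the dose of 102S, against 90.0%. For the interaction it was 5 of 8, against 69.4%. These counts take the brightest probe set of a gene, while the background takes all probe sets. Over all 13 tested member probe sets the share within 2-fold was 69.2%, 76.9%, 76.9%, 84.6% and 53.8% in the same order. Each was below the share over all tested probe sets. Their share within 1.5-fold was 38.5%, 53.8%, 30.8%, 38.5% and 30.8%. Within 1.5-fold it was 4, 5, 3, 5 and 4 of 8 genes in the same order of comparisons, against 42.1%, 39.1%, 45.3%, 51.2% and 21.5% of all tested probe sets. For the others, a difference of 1.5-fold in at least 1 direction still lay within the interval that 3 arrays a group allow.

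Several members followed the β-actin control from array to array. The 3 arrays with the highest β-actin difference were also the 3 lowest of all 12 arrays for 5 of the 13 member probe sets (38.46%), namely both of Cd28, Cd247 1426396_at and 1452539_a_at, and Lat. Over all tested probe sets this held for 1259 of 13556 (9.29%). For no member were they the 3 highest. All 3 were 0.2 µg arrays, so this count does not separate dose from RNA quality. Cd247 1452539_a_at lay between 5.9999 and 6.51 log2 on these 3 arrays and between 7.21 and 9.12 on the 9 others. Lat lay between 9.93 and 10.10 on the 3 and between 10.22 and 10.99 on the 9. Cd3e, in contrast, lay between 10.04 and 10.17 on the 3, inside its range of 10.01 to 10.23 on the 9. With group means taken off, Pearson r with the β-actin difference was -0.98 to -0.95 for the 5 probe sets named. It was -0.96 for Zap70 1422701_at, -0.90 for Cd4 1427779_a_at and -0.81 for Cd3g. It was positive for Cd3e (0.29) and Zap70 1439749_at (0.55), and the median over all tested probe sets was -0.19. No test is attached to these r. The part of RNA quality in the differences between groups was not tested beyond the covariate values given above.

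**Figure D3:**
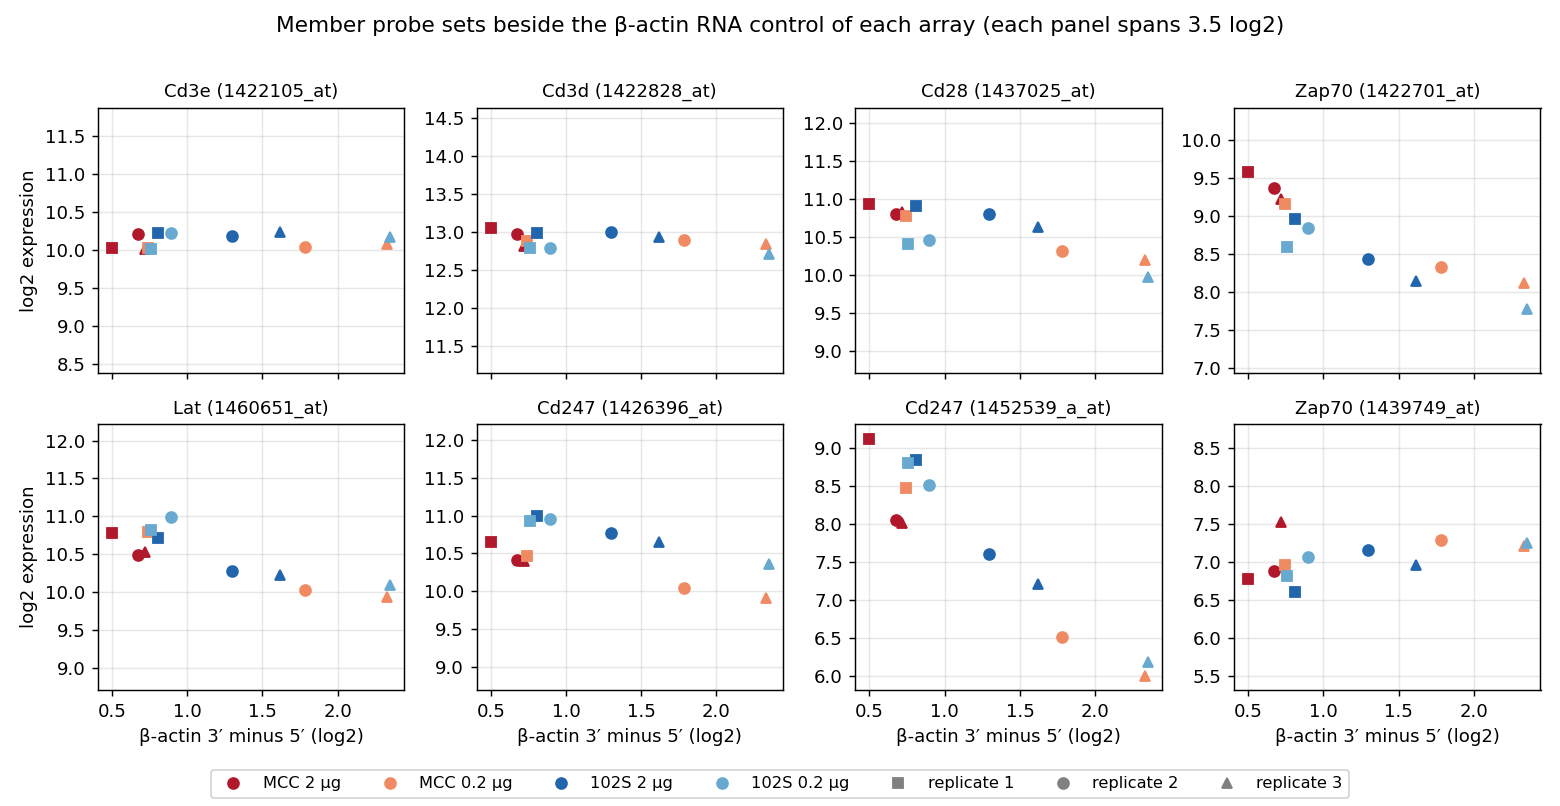
Log2 expression of 8 member probe sets (y axis, every panel spanning the same height) on each array against the β-actin 3′ minus 5′ difference of that array in log2 (x axis). Colours give the group and shapes the replicate. Cd3e and Cd3d stay level, while Cd247 1452539_a_at lies lowest on the arrays with the highest β-actin difference and Zap70 1439749_at does not. The main Zap70 probe set 1422701_at averages 8.07 log2 on the 3 arrays with the highest β-actin difference and 8.92 on the 9 others.

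The other genes of the pathway give the setting of these values. Of 33 other proximal kinases, phosphatases and adaptors 26 were tested. At 2 µg, 0 were higher and 1 lower with MCC, against 4.04% and 6.23% of all probe sets. At 0.2 µg, 4 were higher and 3 lower, against 7.85% and 6.45%. With 2 µg against 0.2 µg, it was 0 and 0 for MCC, against 0.708% and 1.05%, and 4 higher and 1 lower for 102S, against 2.66% and 0.509%. For the interaction it was 0 and 1, against 0.0738% and 0.693%. The median differences were 0.07, 0.02, 0.23 and 0.16 log2 in this order.

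The 4 genes that were higher with MCC at 0.2 µg were Unc119, Cd5, Cd6 and Sh2d1a. The 4 that were higher at 2 µg than at 0.2 µg of 102S were Unc119, Cd5, Cd6 and Sh2d1a too, and both comparisons share the 102S arrays at 0.2 µg. Unc119, known from human T cells as an adaptor that activates Lck and Fyn, read 8.09, 8.44 and 8.19 log2 with MCC at 0.2 µg, against 6.30, 6.33 and 6.51 with 102S at 0.2 µg. The groups lay far apart, by 1.86 ± 0.15 log2 or 3.64-fold (limma adjusted p = 6.44e-06). At 2 µg it read 8.37, 8.26 and 7.97 with MCC, against 7.71, 8.03 and 7.998 with 102S. The interaction of peptide and dose for Unc119 was -1.58 ± 0.21 log2 (adjusted p = 0.00432). Cd5, an inhibitory receptor on T cells, averaged 10.14 ± 0.22 with MCC at 0.2 µg and 9.03 ± 0.20 with 102S at 0.2 µg (SD, n = 3), a difference of 1.11 ± 0.14 (adjusted p = 0.000173), and its 102S dose difference was 1.27 ± 0.14 (adjusted p = 0.000232). Cd6, a receptor related to CD5, differed by 1.06 ± 0.21 between the doses of 102S (adjusted p = 0.015), a call that ended without replicate 1 of 102S at 2 µg (adjusted p = 0.0608).

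Tec, a kinase of the family that activates phospholipase C gamma, was lower with MCC at both doses, by -0.88 ± 0.14 log2 at 2 µg (adjusted p = 0.00242) and by -1.30 ± 0.14 at 0.2 µg (adjusted p = 6.3e-05). Its group means were 5.89 ± 0.15 with MCC at 2 µg, 6.28 ± 0.17 with MCC at 0.2 µg, 6.77 ± 0.16 with 102S at 2 µg and 7.58 ± 0.06 with 102S at 0.2 µg (SD, n = 3). Its 102S dose difference was -0.81 ± 0.14 (adjusted p = 0.00733), which did not pass without 102S at 2 µg replicate 2 (adjusted p = 0.0538). The other genes lower with MCC at 0.2 µg were the membrane adaptors Pag1, which recruits the Lck inhibitor Csk, and Sit1. Pag1, Sit1, Sh2d1a and, below, Pik3r1 were named after their values had been seen.

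Of 32 genes downstream of Lat 22 were tested. At 2 µg, 2 were higher and 4 lower with MCC, against 4.04% and 6.23% of all probe sets. At 0.2 µg it was 2 and 7, against 7.85% and 6.45%. For the dose of MCC it was 2 and 1, against 0.708% and 1.05%, for the dose of 102S 2 and 0, against 2.66% and 0.509%, and for the interaction 0 and 0, against 0.0738% and 0.693%. The median difference was -0.22 log2 at 2 µg and -0.37 at 0.2 µg for MCC against 102S, and 0.07 and -0.02 for the doses of MCC and 102S. Dgkz, a kinase that removes the second messenger diacylglycerol, and Nfatc1, an NFAT transcription factor, were the 2 higher genes in each of the 4 comparisons, which share groups. Nfatc1 for the dose of 102S did not pass without 102S at 2 µg replicate 1 (adjusted p = 0.0707), 2 (0.0967) or 3 (0.0549) or without 102S at 0.2 µg replicate 1 (0.0886) or 2 (0.0867). With only the arrays compared, Nfatc1 for the dose of MCC (adjusted p = 0.0547) and Dgkz for MCC against 102S at 0.2 µg (0.058) did not pass either. Dgkz averaged 12.57 ± 0.07 with MCC at 2 µg, 11.92 ± 0.15 with MCC at 0.2 µg, 11.98 ± 0.02 with 102S at 2 µg and 11.50 ± 0.12 with 102S at 0.2 µg (SD, n = 3). Its peptide difference was 0.59 ± 0.08 at 2 µg (adjusted p = 0.0011) and 0.42 ± 0.08 at 0.2 µg (adjusted p = 0.0057). Nfatc1 averaged 8.56 ± 0.21, 7.71 ± 0.07, 7.68 ± 0.08 and 7.05 ± 0.11 in the same order, with peptide differences of 0.89 ± 0.13 and 0.67 ± 0.13 (adjusted p = 0.00125 and 0.0049).

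The 4 genes lower with MCC at 2 µg were Ppp3ca, a catalytic subunit of calcineurin, Nfatc3, Ikbkb, a kinase of the NF-κB pathway, and Pik3r1. Ppp3ca differed most, by -1.34 ± 0.16 log2 (adjusted p = 0.000313), at 6.74 ± 0.15 with MCC at 2 µg and 8.09 ± 0.12 with 102S at 2 µg (SD, n = 3). At 0.2 µg Ikbkb was lower with MCC by -1.04 ± 0.11 (adjusted p = 5.66e-05), Dgka, another diacylglycerol kinase, by -0.94 ± 0.14 (adjusted p = 0.000586) and Nfatc3 by -0.50 ± 0.10 (adjusted p = 0.00684). The 3 other tested probe sets of Ikbkb were not called in either comparison of the peptides. For the dose of MCC, Ppp3ca was lower at 2 µg by -0.79 ± 0.16 (adjusted p = 0.0255). That call ended without MCC at 2 µg replicate 2 (adjusted p = 0.0919) or 3 (0.0836) and without MCC at 0.2 µg replicate 2 (0.0953) or 3 (0.144), with only the arrays compared (0.0991) and once the 2 arrays with the top β-actin values were left out (0.0757). Without replicate 1 of every group, 6 calls ended: Ppp3ca for MCC against 102S at 0.2 µg (adjusted p = 0.0517), Nfatc3 for MCC against 102S at 2 µg (adjusted p = 0.0526) and at 0.2 µg (0.069), Nfatc1 at 0.2 µg (0.0742) and for the dose of 102S (0.268), and Tec for the dose of 102S (0.124).

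**Figure D4:**
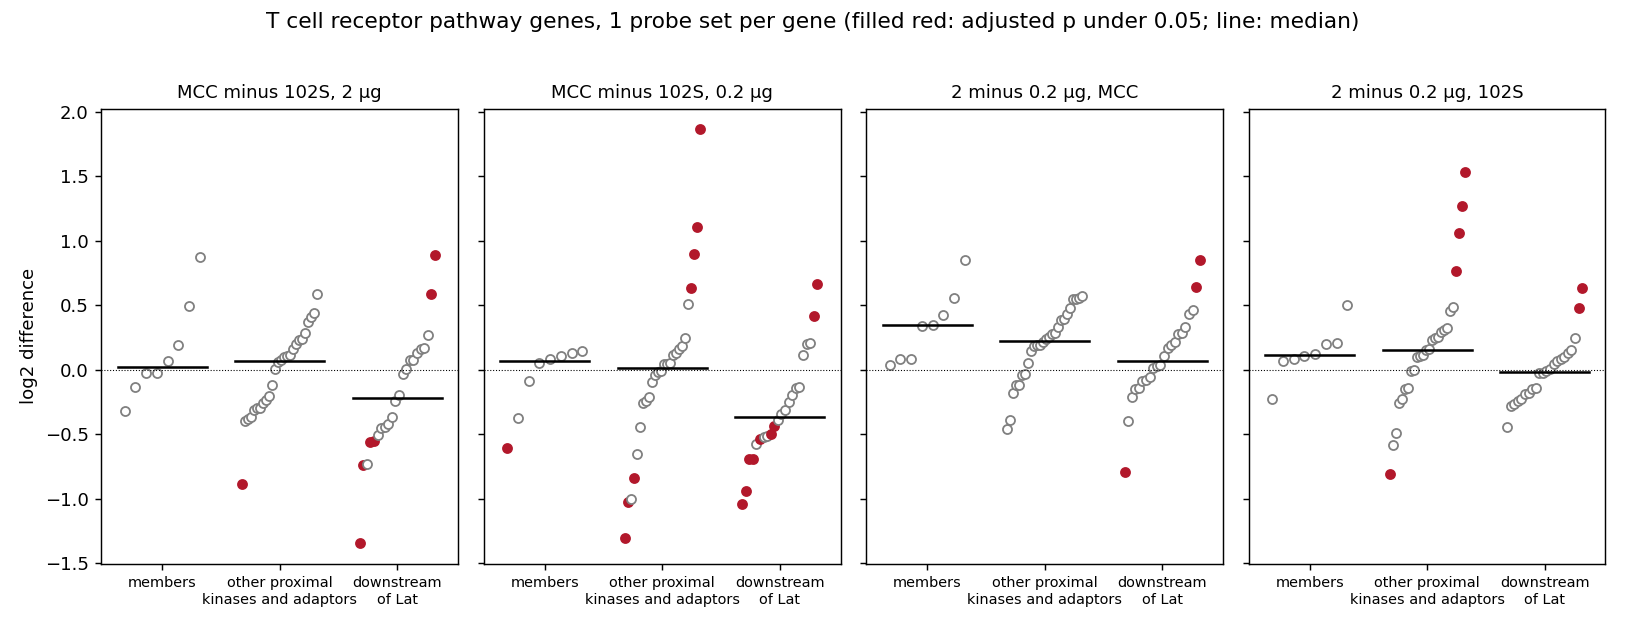
Log2 differences (y axis) of the members and of 2 lists of pathway genes, 1 probe set per gene, in 4 comparisons, each given as the first-named group minus the other. Filled red points passed an adjusted p of 0.05 and lines are list medians. In the panel for MCC minus 102S at 0.2 µg, filled points are 1 of 8 members, 7 of 26 other proximal genes and 9 of 22 genes downstream of Lat, where 14.3% of all probe sets passed.

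The 3 genes whose values over the 12 arrays were most like those of Cd247 1426396_at, among 7937 others, were Emb (Pearson r = 0.973), Rnf167 (r = 0.972) and Rnf145 (r = 0.969). The 12 points share arrays and RNA, and no test is attached. Emb encodes embigin, a surface glycoprotein that accompanies monocarboxylate transporters, and Rnf167 and Rnf145 encode RING-type ubiquitin ligases. For MCC against 102S at 0.2 µg, Emb differed by -0.58 ± 0.16 log2 (adjusted p = 0.0273), Rnf145 by -0.85 ± 0.25 (adjusted p = 0.0394) and Rnf167 by -0.65 ± 0.24 (adjusted p = 0.0906). Emb and Rnf167, like Cd247, were lowest on the 3 arrays with the highest β-actin difference.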

How the data were processed

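Affymetrix mouse arrays of 12 samples were analysed from the authors' deposited table of log2 values, 1 per probe set and array. The log2 scale was read from the values, which ran between 1.86 and 14.7. The software GCOS 1.4 is named per the submitters' processing notes. Summarisation, background correction and scaling are not given in the sources used here. Arrays carry no depth, so their number limits the precision (median SE of a difference 0.18 log2).

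Gene names came from the platform annotation: 20393 probe sets had 1 symbol, 691 several and 1606 none. The 64 controls and probe sets with means under the 40th percentile were left out. limma 3.58.1 in R 4.3.3 (lmFit, eBayes with trend) fitted 4 group means, 8 residual and 4.16 prior degrees of freedom, 2-sided, with Benjamini-Hochberg adjustment over 13556 probe sets. The named pathway genes were up to 4 higher and 4 lower calls per comparison by smallest adjusted p, and likeness was ranked by Pearson r. The members and lists were chosen with earlier results of these data known. Alternatives were no filter, quantile normalization, median centring, the replicate number as a block, the β-actin difference as a covariate, replicate 1 left out, only the arrays compared, single arrays left out and, chosen after seeing the data, the 2 arrays of highest β-actin difference left out and a term for the arrays with high Xist.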

Additional observations from a re-analysis of the deposited data

Results flagged for a closer look

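Unc119 had a peptide difference that changed with the dose, by an interaction of -1.58 ± 0.21 log2 (limma adjusted p = 0.00432). MCC minus 102S was 0.29 log2 at 2 µg and 1.86 log2 at 0.2 µg, and the group means were 8.20 with MCC at 2 µg, 8.24 with MCC at 0.2 µg, 7.91 with 102S at 2 µg and 6.38 with 102S at 0.2 µg.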

How the results depend on the processing

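Of 1352 repeats of a member difference, 21 were of the only call, Cd247 at 0.2 µg. None of these 21 changed its direction, and in 9 the call was lost. Some differences that were not called did change sign, such as that of Lat for the dose of MCC (-0.21 to 0.61 log2). Across the 1352, the result kept its side of the threshold in 1286, and in 57 a difference that had not passed did so. Of 1040 repeats for the named pathway genes, 24 lost a call and 27 gained one. In the order MCC against 102S at 2 µg and at 0.2 µg, the dose of MCC, the dose of 102S and the interaction, 0, 1, 0, 0 and 0 member genes and 1392, 1939, 239, 429 and 104 probe sets passed. Quantile normalization gave 1 member at 2 µg (Cd4). With the replicate number as a block, members were 1, 1, 3, 2 and 0 and probe sets 2485, 3496, 1563, 828 and 321. Under the block Zap70 passed at 2 µg (adjusted p = 0.00537) and for the dose of MCC (0.0145), Cd247 (0.0498) and Cd28 (0.0282) for the dose of MCC, and Cd28 (0.0147) and Cd3d (0.0289) for the dose of 102S. Of the second probe sets, Cd4 1427779_a_at passed at 2 µg (0.0161), for the dose of MCC (0.0115) and for the interaction (0.0286), Cd247 1420716_at at 2 µg (0.00764) and 0.2 µg (0.000998), Cd247 1452539_a_at for the dose of MCC (0.0248) and Cd28 1417597_at for the dose of 102S (0.0145). Same-numbered arrays deviated together with r above 0.1 in 16 of 18 pairs (range -0.29 to 0.82), and 10 of 12 arrays were most like an array of their own number. The pairs of replicate 1 had r of 0.56 to 0.82. Deviations cancel out within a group, so a shift of replicate 1 alone also raises r for replicates 2 and 3. These counts thus cannot tell such a shift from a pairing of every replicate number. The labels do not state a pairing and 2 pairs of replicate 2 fell below 0.1, so the fit without the block was kept. With a term for the arrays with high Xist (replicate 1 of every group), chosen after seeing the data, members were 1, 1, 1, 1 and 0 and probe sets 2059, 3006, 889, 662 and 245. The β-actin covariate gave 2, 3, 0, 3 and 1 members and 3330, 3645, 542, 1420 and 285 probe sets. Without replicate 1 of every group, members were 0, 1, 1, 0 and 0, and probe sets fell outside 1.5 times at 772 (2 µg), 591 (MCC dose) and 269 (102S dose). With only the arrays compared, members were 2 at 2 µg and 0 at 0.2 µg, and probe sets were 1071 at 0.2 µg and 74 for the dose of MCC. Leaving out the 2 arrays with the highest β-actin values, 1 member passed at 2 µg (Zap70) and 97 probe sets for the dose of MCC. Leaving out single arrays gave 0 to 1, 0 to 1, 0 to 3, 0 to 1 and 0 to 0 members and 700 to 1601, 1051 to 2785, 61 to 1208, 210 to 501 and 62 to 142 probe sets. The 3 members of the MCC dose, Cd4, Cd28 and Zap70, came without MCC at 0.2 µg replicate 1, and the 1 of the 102S dose, Cd3d, without MCC at 2 µg replicate 3. The extremes for the dose of MCC came without MCC at 0.2 µg replicate 3 (61) and replicate 1 (1208). At 2 µg Zap70 passed without MCC at 0.2 µg replicate 1 (adjusted p = 0.0473) or 102S at 0.2 µg replicate 3 (0.0462). The cause of these shifts was not tested. No filter and median centring kept every count within 1.5 times.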

Other observations

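Lcp2 encodes SLP-76, the adaptor that LAT brings to phospholipase C gamma, and was singled out after its values had been seen. Its main probe set averaged 11.20 ± 0.10 log2 with MCC at 2 µg and 10.61 ± 0.24 with 102S at 2 µg (SD, n = 3), a difference of 0.59 ± 0.25 (SE) that did not pass (limma adjusted p = 0.17). Its second probe set averaged 8.39 ± 0.27 with MCC at 2 µg and 7.44 ± 0.14 with 102S at 2 µg (SD, n = 3), a difference of 0.95 ± 0.22 that passed (adjusted p = 0.0185). At 0.2 µg the main probe set differed by 0.25 ± 0.25 (adjusted p = 0.566) and the second by 0.75 ± 0.22 (adjusted p = 0.0417). The 2 probe sets thus differed in their calls.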
